A study of Mus musculus with 7 samples.

Results

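NADPH oxidases are membrane enzymes that pass electrons from NADPH to oxygen and so make superoxide or hydrogen peroxide on purpose. The genes described here encode 9 subunits of this family, chosen by symbol from a list, and all 9 were among the 16019 genes listed in each of the 7 libraries. In phagocytes the catalytic subunit encoded by Cybb sits in the membrane with its partner encoded by Cyba, and it becomes active when cytosolic subunits, among them those encoded by Ncf1 and Ncf4, and the small GTPase Rac2 join it. Nox1, Nox4, Duox1 and Duox2 encode catalytic subunits better known from epithelial, stromal and vascular cells. The dual oxidases Duox1 and Duox2 release hydrogen peroxide at mucosal surfaces and need the maturation factors Duoxa1 and Duoxa2 to leave the endoplasmic reticulum.

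The libraries came from prostate tissue of mice with experimental autoimmune prostatitis (EAP), a mouse model of prostate inflammation that is raised by immunising against prostate antigens, and all 7 libraries are from EAP tissue. LIT927 (4 libraries) was injected intraperitoneally at 25 mg/kg per day for 14 days; the compound is a ligand of the chemokine CXCL12 that prevents its binding to CXCR4. Vehicle (3 libraries) was the solvent alone, methyl-β-cyclodextrin, injected in the same way for 14 days. The labels state no strain, age or pooling. Nor do they say whether libraries of a group came from different mice, so the p-values refer to the spread among these libraries, part of which may be technical.

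The values are FPKM, that is, fragment counts scaled to gene length and library size, so levels of different genes can be set side by side per length. Whole fragments recovered from the FPKM steps summed to 32044385 to 35258956 per library, so total depth was even. Depth left for other genes differed: Svs2, a gene of seminal vesicle secretion, alone took 1384991 to 8179715 of these fragments per library. Markers of the prostate lumen were present in all libraries, with summed levels of 5516 to 115500 FPKM in LIT927 and 2684 to 59450 FPKM in vehicle libraries. Transcripts of seminal vesicle secretion were more abundant still in every library, at 125500 to 279900 FPKM in LIT927 and 44380 to 526800 FPKM in vehicle libraries. Among these, Svs1 was at 11060 FPKM in LIT927 replicate 3 and at 11990 and 25360 FPKM in vehicle replicates 3 and 4. In LIT927 replicates 1, 2 and 4 it was at 123, 38.8 and 243 FPKM, and in vehicle replicate 1 at 80.9 FPKM. The part of this split in the oxidase levels was not tested. LIT927 replicate 3 and vehicle replicate 3 stood apart by high uroplakin transcripts, markers of urothelium, with summed levels of 328.4 and 264.1 FPKM against 26.8 to 43.7 FPKM elsewhere. Both also had little of the vas deferens transcripts, at 18.9 and 99.5 FPKM in sum, against 1999 to 20190 FPKM elsewhere. Counts of members and differences of the phagocyte members are therefore given without them too, while those of the other gene lists are not. In bulk tissue, fewer cells of a type and less RNA per cell cannot be told apart.

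The promoters of the phagocyte members with an entry in the RefSeq promoter table (GRCm38.p6) are shown because they belong to the subunits whose means were lower with LIT927. Each window holds 250 bases before and 50 after the annotated start and is written on the gene's strand. Capitals mark GAGGAA, a purine-rich core of the kind bound by the myeloid factor PU.1, and GGGCGG, the core of a GC box, on either strand (TTCCTC and CCGCCC on the other), and no marked motif overlapped another.
Cybb, chrX:9469275-9469574, minus strand: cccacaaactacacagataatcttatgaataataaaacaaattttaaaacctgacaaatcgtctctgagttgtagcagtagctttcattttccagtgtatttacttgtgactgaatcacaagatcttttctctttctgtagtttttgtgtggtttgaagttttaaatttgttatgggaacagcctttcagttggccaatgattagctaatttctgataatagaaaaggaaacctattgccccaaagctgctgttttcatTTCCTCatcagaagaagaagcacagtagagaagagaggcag
Cyba, chr8:122432891-122433190, minus strand: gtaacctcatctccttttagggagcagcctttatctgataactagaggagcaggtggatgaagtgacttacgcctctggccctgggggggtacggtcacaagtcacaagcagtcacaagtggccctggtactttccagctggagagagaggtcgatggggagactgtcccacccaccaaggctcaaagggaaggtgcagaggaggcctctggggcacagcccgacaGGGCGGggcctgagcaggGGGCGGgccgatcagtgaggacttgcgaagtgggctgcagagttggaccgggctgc
Ncf1, chr5:134229576-134229875, minus strand: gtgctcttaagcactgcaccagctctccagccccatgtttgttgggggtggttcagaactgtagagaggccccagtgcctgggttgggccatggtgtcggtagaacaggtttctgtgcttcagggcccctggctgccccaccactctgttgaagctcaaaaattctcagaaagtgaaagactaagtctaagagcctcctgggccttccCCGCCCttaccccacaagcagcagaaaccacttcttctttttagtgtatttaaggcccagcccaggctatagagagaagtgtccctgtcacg

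The Cybb window held 1 GAGGAA core on the opposite strand, with its first base at position 10 counting the start as 1. That start lies inside the wider Cybb span given below. The windows of Cyba and Ncf1 held none, and had 2 and 1 GC box cores. Among the 7 members with a window, 2 (Cybb and Nox1) held GAGGAA and 3 (Cyba, Ncf1 and Nox4) held GGGCGG, while 28.3% and 35.7% of the 32851 promoter windows in the table did. These matches describe letters and not binding sites.

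The comparison asked how the oxidase genes of the inflamed prostate stood after neutralisation of CXCL12. Mean levels of all 5 phagocyte oxidase members were lower in LIT927 than in vehicle libraries, at 0.346 to 0.592 of the vehicle mean, but no member passed the test over all genes. The test was limma on log2(FPKM + 1), with Benjamini-Hochberg adjustment over 16019 genes and a threshold of 0.05. It called 0.0% of all genes, and the adjusted p was 0.998 for each of the 9 members. At an unadjusted p under 0.05, limma had 589 genes in all, and 4 of the 9 members were among those that were lower, against 2.96% of all genes. No member was among those that were higher, against 0.718% of all genes. The count of lower members was 0 without vehicle replicate 1 (1.79% of all genes in that fit). It was 1 without vehicle replicate 4 (8.02%), LIT927 replicate 1 (1.82%) or LIT927 replicate 3 (2.39%). Without vehicle replicate 4 that member was not of the phagocyte oxidase. The count was 2 without LIT927 replicate 2 (1.56%) or 4 (3.37%). It was 4 without vehicle replicate 3 (2.9%) and without both libraries of high uroplakin level (2.67%). With all libraries it was 2 with a pseudocount of 0.1 (2.98%) and with voom on recovered fragments (2.5%). It was 3 with median-of-ratios scaling (5.51%), and 4 with upper-quartile scaling (5.71%) and with a replicate block (3.21%). In 1 member, Ncf4, every LIT927 library lay below every vehicle library, as in 2.12% of all genes, and in none did every LIT927 library lie above, as in 1.08%.

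Cybb, the catalytic subunit of the phagocyte oxidase, was at 1.19, 1.63, 0.495 and 1.49 FPKM in LIT927 replicates 1 to 4, against 4.57, 1.44 and 3.92 FPKM in vehicle replicates 1, 3 and 4. Vehicle replicates 1 and 4 stood above every LIT927 library, while vehicle replicate 3 lay within the LIT927 range, so the groups overlapped. The means were 1.201 ± 0.505 FPKM with LIT927 (SD, n = 4) and 3.31 ± 1.65 FPKM with vehicle (SD, n = 3). The difference in log2(FPKM + 1), LIT927 minus vehicle, was -0.91 (SE 0.35; 95% interval -1.73 to -0.10), and the two-sided exact permutation test gave p = 0.0857 with 4 LIT927 and 3 vehicle libraries, where no p under 0.0286 is possible. Cybb lies on mm10 chromosome X, from 9435252 to 9487771 on the minus strand. These levels rested on 76 to 254 fragments per LIT927 library and 233 to 736 per vehicle library, so counting error was small beside the spread between libraries.

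Cyba, whose product stabilises Cybb and also partners Nox1 and Nox4, was by far the most abundant member, above Cybb in 7 of 7 libraries. It was at 19.6, 15.2, 4.97 and 22.6 FPKM in LIT927 replicates 1 to 4 and at 39.9, 21.8 and 17.3 FPKM in vehicle replicates 1, 3 and 4. The groups overlapped: the low mean with LIT927 was set by replicate 3, and the high mean with vehicle by replicate 1. The difference was -0.81 (SE 0.51, 95% interval -1.99 to 0.38), with p = 0.314 by exact permutation, and it was -0.37 without LIT927 replicate 3 and -0.47 without vehicle replicate 1. The gene lies on chromosome 8, from 122424776 to 122432930 on the minus strand.

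Ncf1 encodes the organiser that carries the cytosolic complex to the membrane. It was at 0.819, 0.853, 0.541 and 0.841 FPKM in LIT927 replicates 1 to 4, against 2.49, 0.791 and 2.35 FPKM in vehicle replicates 1, 3 and 4. As with Cybb, vehicle replicates 1 and 4 were high and vehicle replicate 3 was within the LIT927 range. The difference was -0.65 (SE 0.26, 95% interval -1.24 to -0.06), and p was 0.114 by exact permutation. Ncf1 (chromosome 5, from 134220053 to 134229625, minus strand) shares exon sequence with Gtf2ird2 on the opposite strand. Whether counting used strand is not stated, so reads of the pair may be mixed.

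Ncf4 encodes a cytosolic subunit that binds phosphoinositide lipids of the phagosome. It was at 0.681, 0.896, 0.0365 and 0.924 FPKM in LIT927 replicates 1 to 4 and at 2.42, 1.12 and 1.96 FPKM in vehicle replicates 1, 3 and 4. The groups did not overlap, with all 4 LIT927 libraries below the lowest vehicle library. The difference was -0.81 (SE 0.27; 95% interval -1.44 to -0.18), and exact permutation gave p = 0.0286, the smallest the design allows, before any correction for 9 members and 16019 genes. Without LIT927 replicate 3 it was -0.60. The value in that replicate rested on 2 fragments (exact Poisson 95% interval 0.242 to 7.22, counting error only), against 38 to 55 in the other LIT927 libraries. Ncf4 lies on chromosome 15, from 78244801 to 78262580 on the plus strand.

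Rac2, the Rac GTPase of blood cells, lies on the same chromosome 15, from 78559167 to 78572783 on the minus strand. It was at 1.18, 1.51, 0.575 and 1.55 FPKM in LIT927 replicates 1 to 4 and at 4.36, 1.40 and 3.32 FPKM in vehicle replicates 1, 3 and 4. Vehicle replicate 3 again lay within the LIT927 range. The difference was -0.82 (SE 0.33, 95% interval -1.58 to -0.06), and the exact permutation test gave 0.0857. The widely expressed Rac1, which can take its place in other cells, was at 109 ± 12 FPKM with LIT927 and 109 ± 34 FPKM with vehicle (SD, n = 4 and 3), far above Rac2.

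**Figure D1:**
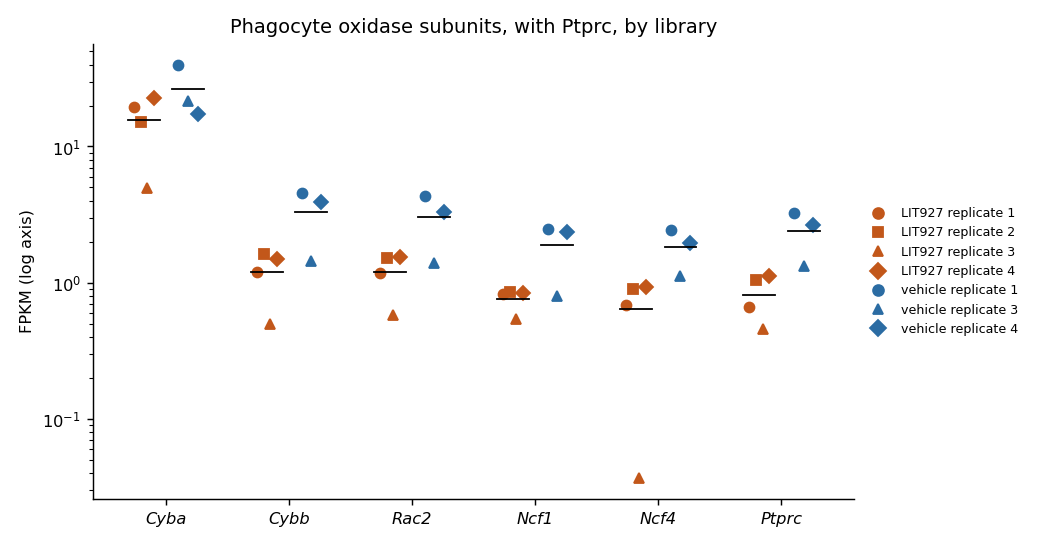
FPKM (log axis) of the phagocyte oxidase members and of the leukocyte marker Ptprc in each library; LIT927 libraries are orange and left, vehicle libraries blue and right, marker shapes give the replicate number and bars the group mean. Vehicle replicates 1 and 4 stand above all LIT927 libraries for Cybb, Rac2, Ncf1 and Ncf4, vehicle replicate 3 stands near the LIT927 libraries, and LIT927 replicate 3 is lowest for each gene plotted.

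Within the phagocyte members, the proportions of some subunits varied far less than their levels. Cybb differed 9.23-fold between its highest and lowest library, while the ratio of Rac2 to Cybb (FPKM over FPKM) ran from 0.930 to 1.16 in LIT927 libraries and from 0.848 to 0.974 in vehicle libraries. The ratio of Ncf1 to Cybb was 0.688, 0.524, 1.09 and 0.563 in LIT927 replicates 1 to 4, against 0.545, 0.549 and 0.599 in vehicle replicates 1, 3 and 4. Cyba did not keep such a proportion: its ratio to Cybb ran from 9.35 to 16.4 in LIT927 libraries and from 4.42 to 15.1 in vehicle libraries. Ncf4 kept close to Ncf1 in 6 libraries, at ratios of 0.832 to 1.42, and was at 0.0675 of Ncf1 in LIT927 replicate 3 (0.00817 to 0.244 by the Poisson interval of the Ncf4 count). For each of these 5 genes LIT927 replicate 3 was the lowest library and vehicle replicate 1 the highest.

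Ptprc, the pan-leukocyte marker CD45, moved with the phagocyte members. It was at 0.657, 1.04, 0.456 and 1.11 FPKM in LIT927 replicates 1 to 4 and at 3.23, 1.32 and 2.63 FPKM in vehicle replicates 1, 3 and 4, without overlap. Cybb stood at 1.09 to 1.81 times Ptprc in LIT927 libraries and at 1.09 to 1.49 times Ptprc in vehicle libraries. On the scale of log2(FPKM + 0.1), Cybb minus Ptprc differed between LIT927 and vehicle by 0.08 (p = 0.743 by exact permutation). The same quantity differed by 0.56 for Cyba (p = 0.314), 0.36 for Ncf1 (p = 0.257), 0.22 for Rac2 (p = 0.229) and -0.26 for Ncf4 (p = 0.971, exact permutation, n = 4 and 3). For Ncf4 the mean was set by LIT927 replicate 3, without which the difference was 0.21. The difference for Cyba was 0.20 without vehicle replicate 4 and 0.32 without LIT927 replicate 1. For Ncf1 it was 0.22 without vehicle replicate 3, and for Rac2 it was 0.12 without vehicle replicate 3 and 0.13 without LIT927 replicate 1. Relative to Ptprc, the groups overlapped for every one of these members. These 5 p-values are not adjusted.

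**Figure D2:**
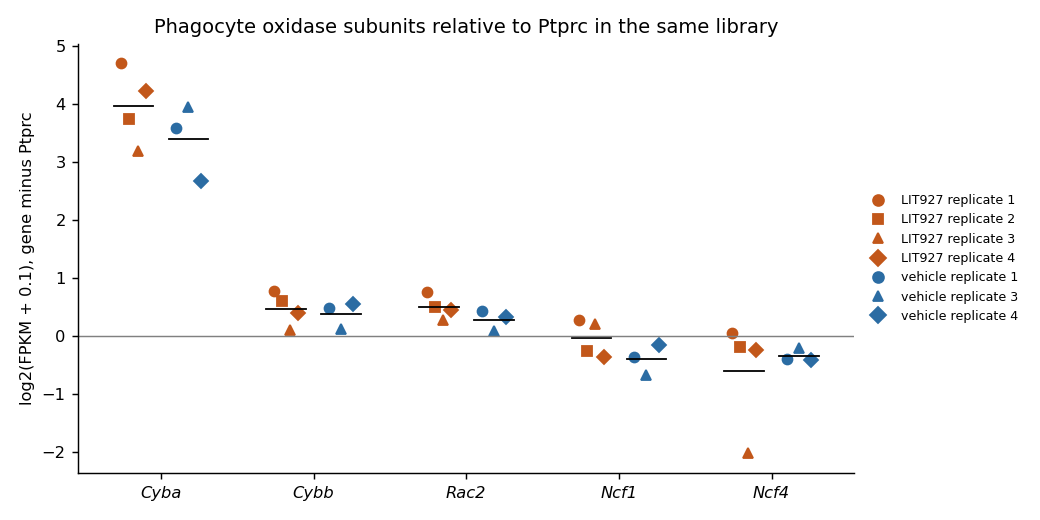
Level of each phagocyte oxidase member relative to Ptprc in the same library, as a difference of log2(FPKM + 0.1) values; LIT927 libraries are orange and left, vehicle libraries blue and right, and bars are group means. The groups overlap for each gene, and LIT927 replicate 3 lies apart for Ncf4 at -2.03.

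Differences in log2(FPKM + 1) were mostly below 0 in the marker lists of many cell types, those that carry this oxidase and others, where 44.5% of all genes had a lower difference and 2.96% one at an unadjusted limma p under 0.05. Of 8 leukocyte markers, 7 had a lower difference, 6 of them at that p, with summed levels of 31.7 to 57.4 FPKM in LIT927 and 43.6 to 76.6 FPKM in vehicle libraries. The other marker, Lcp1, held a large part of these sums. It was at 31.5 ± 7.3 FPKM with LIT927 and 23.4 ± 1.1 FPKM with vehicle (SD, n = 4 and 3). All 11 macrophage markers had a lower difference, 6 of them at that p, with sums of 48.1 to 147 FPKM in LIT927 and 141 to 404 FPKM in vehicle libraries. The 7 neutrophil markers in the files had a lower difference on the log2 scale, 5 of them at that p, with sums of 0.252 to 4.86 FPKM in LIT927 and 5.57 to 8.37 FPKM in vehicle libraries. The exception by mean FPKM was S100a8, at 2.50 ± 1.62 FPKM with LIT927 and 2.21 ± 0.76 FPKM with vehicle (SD, n = 4 and 3), whose log2 difference was -0.04. T cell markers, of cells that make little of this oxidase, had 8 of 8 lower differences, 7 of them at that p, with sums of 1.77 to 3.17 FPKM in LIT927 and 4.39 to 12.0 FPKM in vehicle libraries. B cell markers, whose cells also make this oxidase, had sums of 0.171 to 2.32 FPKM in LIT927 and 0.527 to 6.47 FPKM in vehicle libraries. None of these markers was at 0 in all libraries. Among other tissue cells, fibroblast markers had a lower difference in 7 of 7, at 61.4 to 216 FPKM in LIT927 and 82.5 to 452 FPKM in vehicle libraries, and endothelial markers in 6 of 6, at 3.97 to 34.4 FPKM in LIT927 and 18.2 to 74.1 FPKM in vehicle libraries. Smooth muscle markers had a lower difference in 6 of 6, at 850.4 to 5616 FPKM in LIT927 and 2793 to 9922 FPKM in vehicle libraries, and basal epithelial markers in 6 of 6, at 24.9 to 46.8 FPKM in LIT927 and 31.0 to 103 FPKM in vehicle libraries. General epithelial markers went the other way, with 5 of 6 higher, as did vas deferens markers, with 4 of 4 higher. A lower difference was found for 5 of 5 prostate luminal, 4 of 5 urothelial and 4 of 6 seminal vesicle markers. LIT927 replicate 3 set the low end of the LIT927 sums of leukocyte, macrophage, neutrophil, B cell, fibroblast, smooth muscle, endothelial and basal epithelial markers. Without it, LIT927 sums began at 105 FPKM for macrophage, 3.48 FPKM for neutrophil and 124 FPKM for fibroblast markers. They began at 2722 FPKM for smooth muscle, 17.9 FPKM for endothelial and 29.8 FPKM for basal epithelial markers. The part of all these cell types in the levels of the oxidase genes was not tested beyond the ratios to Ptprc given here.

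The other catalytic subunits were at no more than 0.331 FPKM in any library. Cybb made up 83.1% to 90.3% of the summed FPKM of the 5 catalytic subunits in LIT927 libraries and 82.5% to 98.1% in vehicle libraries. By mean over 7 libraries the order of the 9 members was Cyba, Cybb, Rac2, Ncf1, Ncf4, Nox4, Duox1, Duox2 and Nox1. Neighbours in that order changed places between libraries in most cases: Cybb was above Rac2 in 5 of 7 libraries, Ncf1 above Ncf4 in 4, Nox4 above Duox1 in 4, and Duox1 above Duox2 in 4. The steps that held in 7 of 7 libraries were Cyba above Cybb and Rac2 above Ncf1, and Ncf4 was above Nox4 in 6 of 7.

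Nox4 encodes an oxidase that is active without cytosolic subunits and is known from kidney, fibroblasts and vessel walls. It was at 0.0878, 0.0390, 0.0397 and 0.105 FPKM in LIT927 replicates 1 to 4 (8 to 23 fragments) and at 0.331, 0.113 and 0.0271 FPKM in vehicle replicates 1, 3 and 4 (6 to 70 fragments). The vehicle libraries held both its highest and its lowest value, so the groups overlapped fully. The difference was -0.11 (SE 0.09, 95% interval -0.31 to 0.09, exact permutation test p = 0.343), and it rested on vehicle replicate 1, without which it was -0.002. That library also had the highest marker sums of fibroblasts, smooth muscle and endothelium, and of leukocytes, macrophages, neutrophils and B cells. Their part in the Nox4 level was not tested. Nox4 lies on chromosome 7, from 87246096 to 87398710 on the plus strand.

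Duox1 and Duox2 lie near each other on chromosome 2, Duox1 from 122315672 to 122347972 on the plus strand and Duox2 from 122279247 to 122298449 on the minus strand, and their means differed in opposite directions. Duox1 was at 0.0648, 0.120, 0.0609 and 0.0467 FPKM in LIT927 replicates 1 to 4, from 13, 24, 12 and 10 fragments, and at 0.0145, 0.0481 and 0.0323 FPKM in vehicle replicates 1, 3 and 4, from 3, 10 and 7 fragments. Its highest values were in LIT927 libraries, with overlap only between LIT927 replicate 4 and vehicle replicate 3. The difference was 0.06 (SE 0.04, 95% interval -0.03 to 0.15, exact permutation test p = 0.0857), and 0.04 without LIT927 replicate 2.

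Duox2, the dual oxidase known for thyroid hormone synthesis and gut defence, was at 0.0201, 0.0151, 0 and 0.0519 FPKM in LIT927 replicates 1 to 4, from 4, 3, 0 and 11 fragments. It was at 0.112, 0.102 and 0.0186 FPKM in vehicle replicates 1, 3 and 4, from 23, 21 and 4 fragments. Vehicle replicate 4 was within the LIT927 range and the other vehicle libraries above it. The difference was -0.08 (SE 0.04, 95% interval -0.18 to 0.03, exact permutation test p = 0.171), and -0.12 without vehicle replicate 4. The absence of fragments in LIT927 replicate 3 allows up to 0.0154 FPKM, the level of 3 fragments. Summed over libraries, Duox1 had a recovered level of 0.446 CPM with LIT927 (95% Poisson interval 0.339 to 0.575) and 0.194 with vehicle (0.119 to 0.300), and Duox2 had 0.136 (0.0806 to 0.215) with LIT927 and 0.467 (0.344 to 0.619) with vehicle. These intervals cover counting error only, not the spread between libraries.

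Nox1, the oxidase of colon epithelium, was at the limit of detection, with 5, 0, 0 and 4 fragments in LIT927 replicates 1 to 4 and 2, 4 and 0 in vehicle replicates 1, 3 and 4. A library at 0 allows up to 0.0333 FPKM, and no difference was detectable at this depth (0.004, SE 0.04, 95% interval -0.08 to 0.09, exact permutation test p = 1.0), with a sign that changed under several alternatives. Nox1 (chromosome X, from 134086421 to 134221956, minus strand) shares exon sequence with Cstf2 on the opposite strand, so its few fragments are uncertain.

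**Figure D3:**
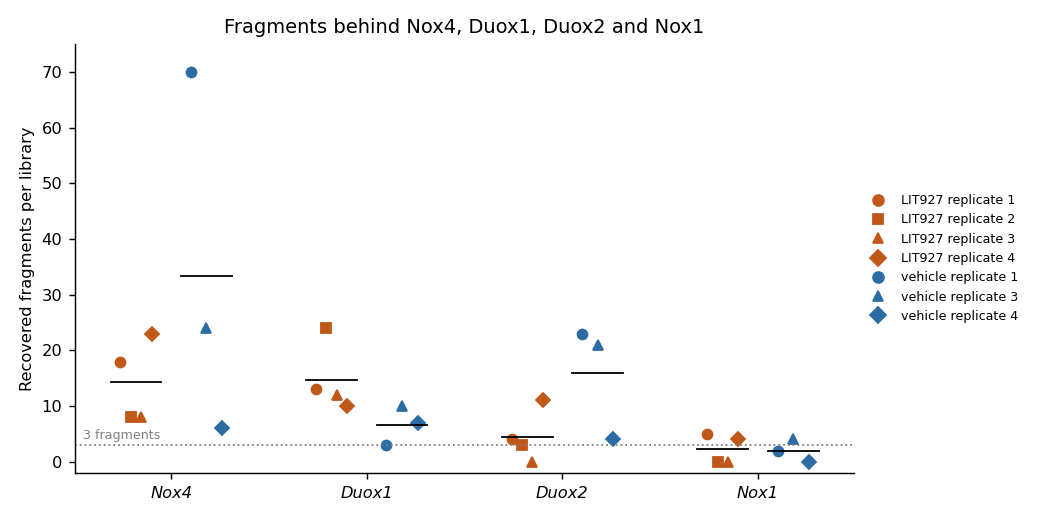
Recovered fragments of Nox4, Duox1, Duox2 and Nox1 in each library; LIT927 libraries are orange and left, vehicle libraries blue and right, bars are group means and the dotted line marks 3 fragments. Counts run from 0 to 70, Duox1 is highest in LIT927 replicate 2 with 24 and Duox2 in vehicle replicate 1 with 23.

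**Figure D4:**
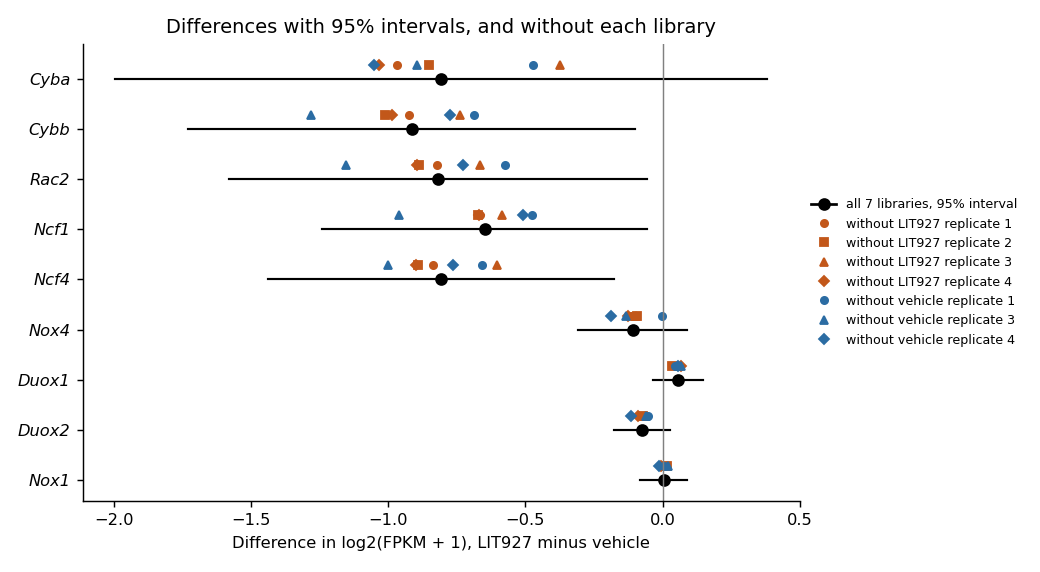
Differences in log2(FPKM + 1), LIT927 minus vehicle, for the 9 members, with limma's 95% intervals over 7 libraries (black) and the difference without each library (coloured marks above each line). Cyba, Cybb, Rac2, Ncf1, Ncf4, Nox4 and Duox2 stay below 0 without any 1 library, Nox4 only just, at up to -0.002. Duox1 stays above 0 and Nox1 changes sign. The Cyba interval over all libraries runs from -1.99 to 0.38.

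Partners of these oxidases, 13 of 14 listed genes being in the files, gave no called gene, with 9 lower and 4 higher differences and a median of -0.08, while over all genes 44.5% were lower, 55.5% higher and the median was 0.02. Without vehicle replicate 1 the partners had 6 lower and 7 higher differences. Arhgdib, which encodes a GDP dissociation inhibitor of small GTPases in blood cells, was at 4.82 ± 2.04 FPKM with LIT927 and 9.27 ± 3.96 FPKM with vehicle (SD, n = 4 and 3). Duoxa1, the maturation factor encoded next to Duox1, was at 0.980, 1.67, 2.46 and 1.42 FPKM in LIT927 replicates 1 to 4 and at 0.590, 1.63 and 0.272 FPKM in vehicle replicates 1, 3 and 4, well above Duox1 in each library. Its difference was 0.56 (SE 0.30; exact permutation p = 0.171, n = 4 and 3), the same sign as that of Duox1. Duoxa2, the partner of Duox2, was at 0.0141 ± 0.0094 FPKM with LIT927 and 0.0679 ± 0.0471 FPKM with vehicle (SD, n = 4 and 3), the same sign as that of Duox2 but from no more than 6 fragments per library.

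Of 18 genes that act upstream of the phagocyte oxidase, as receptors, kinases and exchange factors, 14 had a lower difference, against 44.5% of all genes, and 4 a higher one, with a median of -0.37 and none called. In 4 of them (Syk, C5ar1, Arhgef6 and Fcgr3, the last named after its values were seen) every LIT927 library lay below every vehicle library, as in 2.12% of all genes. Syk, the kinase downstream of Fc receptors and integrins, was at 0.110, 0.118, 0.0629 and 0.195 FPKM in LIT927 replicates 1 to 4 and at 0.616, 0.241 and 0.286 FPKM in vehicle replicates 1, 3 and 4. C5ar1, the receptor for complement C5a, was at 0.337 ± 0.175 FPKM with LIT927 and 1.005 ± 0.601 FPKM with vehicle, again without overlap, and Arhgef6, a Rac exchange factor, at 0.580 ± 0.175 FPKM with LIT927 and 1.31 ± 0.41 FPKM with vehicle (SD, n = 4 and 3). Itgb2, the shared chain of leukocyte integrins, was at 1.002 ± 0.440 FPKM with LIT927 and 3.34 ± 1.89 FPKM with vehicle, a difference of -1.02 (SE 0.37, limma Benjamini-Hochberg adjusted p = 0.998), and here the groups overlapped. The 4 genes with a higher difference were Pik3r5 (0.51), Plcg2 (0.19), Itgam (0.12) and Prkcd (0.005), all with overlap. With library weights 9 of the 18 were lower and 9 higher.

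Enzymes that use superoxide or hydrogen peroxide had the opposite sign, with 10 of 11 higher, against 55.5% of all genes. Their median difference was 0.12 and none was called. Without vehicle replicate 4, however, the count was 2 of 11 higher and the median -0.10. The count was 7 of 11 with upper-quartile scaling and 6 of 11 under both kinds of library weights. Lpo, the secreted lactoperoxidase that consumes hydrogen peroxide at mucosal surfaces, was at 20.2, 33.2, 1.97 and 17.0 FPKM in LIT927 replicates 1 to 4 and at 4.77, 3.16 and 9.16 FPKM in vehicle replicates 1, 3 and 4. All LIT927 libraries but replicate 3 were above the vehicle libraries (difference 1.17, SE 0.80, exact permutation p = 0.257, n = 4 and 3). Mpo, the peroxidase of neutrophil granules, was the 1 gene of the list that was lower and had 0 to 1 fragments per LIT927 library and 4 to 6 per vehicle library. Epx, the eosinophil peroxidase, was at 0.0834 ± 0.0642 FPKM with LIT927 and 0.00860 ± 0.00846 FPKM with vehicle, from at most 16 fragments, and Gpx3, a secreted glutathione peroxidase, at 176 ± 33 FPKM with LIT927 and 159 ± 102 FPKM with vehicle (SD, n = 4 and 3).

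The genes most like each member across the 7 libraries were sought by Pearson r of log2(FPKM + 1) among 11060 genes with a mean of at least 1 FPKM. All of these values share the same 7 libraries and their tissue make-up, and the highest r among so many genes is given as a description with no p. Cybb was most like Fcer1g (r = 0.993), the signalling chain of Fc receptors, then Ccl8 (0.990) and H2-Aa (0.988). Ncf1 was most like Ctss (0.992), Ncf4 like Ccl8 (0.984) and Rac2 like Ccl8 (0.994) and Coro1a (0.993). Cyba was most like other genes than these: Arhgef26 (r = 0.997), the collagen gene Col4a2 (0.995) and Rab8b (0.995). Nox4 was most like Cend1 (0.988), Duox1 like Dtnb (0.971) and Nox1 like Prag1 (0.956). Tppp3 (0.989) and Igfbp5 (0.989) were among the genes most like Duox2.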

How the data were processed

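Total RNA from 7 prostate samples was isolated with TRIzol and VAHTS Universal V6 libraries were prepared, per the labels' protocols. The deposited values are FPKM computed by the authors, with fastp, HISAT2, HTSeq and mm10 named in the submitters' processing notes. No source used here gives versions, annotation, strand setting or filters. The unit follows from the values: a gene's low FPKM are whole multiples of 1 step. Whole fragments were recovered for 16018 of 16019 genes, within 0.01 fragments, assuming whole gene lengths. Where a gene's counts share a divisor, the smallest solution was taken. FPKM are relative to the library, so libraries rich in secretory transcripts show lower values for other genes. No pair of libraries shared any value above 0.

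Groups followed the titles (4 LIT927, 3 vehicle). log2(FPKM + 1) values of all genes were fitted with limma 3.58.1 (R 4.3.3, trended prior variance), without filter or covariate. Calls needed an adjusted p (Benjamini-Hochberg) under 0.05. Differences are LIT927 minus vehicle and understate the change of low genes. Exact permutation tests are two-sided over 35 divisions. The fit was tested on simulated data. The members and lists were chosen with earlier results of these data known. Named genes were the members, up to 4 genes of the smallest p in each other oxidase list, Ptprc, and up to 3 genes most like each member, some of which are not reported here. Rac1, Svs1, Fcgr3, Lcp1, Pik3r5, Plcg2, Itgam and Prkcd were added after their values were seen. Coordinates are from GENCODE M21 (mm10) and promoters from RefSeq. Alternatives were other pseudocounts, a filter, scalings, weights, voom on fragments, a replicate block and left-out libraries. Tables and permutation tests were made in Python 3.11.15 (pandas 2.3.3, NumPy 2.4.6), Poisson intervals with SciPy 1.17.1, and plots with matplotlib 3.10.9.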

Additional observations from a re-analysis of the deposited data

Results flagged for a closer look

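Among 14 values examined in the 4 LIT927 libraries, 2 had replicate 3 far from the others. Chance gives about 1 in 20 for independent values. These 14 share the same libraries, so their count cannot be set against that rate. Ncf1 was at 0.541 FPKM in LIT927 replicate 3, against 0.819 to 0.853 FPKM in the other LIT927 libraries. Ncf4 relative to Ptprc, as a difference of log2(FPKM + 0.1), was at -2.03 there, against -0.25 to 0.05. That library also had the lowest summed macrophage markers (48.1 FPKM) and neutrophil markers (0.252 FPKM) of all 7, and their part in these values was not tested. The vehicle group, with 3 libraries, was too small for this check.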

How the results depend on the processing

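Under 14 of 16 alternatives 0 genes were called, as in the reported test. Library weights called 6072 genes, but their estimation did not converge and gave vehicle replicate 3 a weight of 31.5, and a gene-by-gene estimate, added after seeing the data, called 466. At an unadjusted limma p under 0.05, 2 of 9 members were lower with the library weights (25.0% of all genes). With the gene-by-gene estimate 1 of 9 was (15.1%). With the library weights Duox2 was past the threshold at -0.10 (limma adjusted p = 0.00457), while its adjusted p over all alternatives ran from there to 1.0, and Ncf1 turned to 0.0137; the cause was not tested. Nox1 changed sign under voom (-0.10), under both kinds of weights (-0.0125 and -0.003), and without LIT927 replicate 1, LIT927 replicate 4 or vehicle replicate 4 (range without each library -0.0112 to 0.0185). Apart from Ncf1 and Nox1, no member changed sign under any alternative that was run. Cybb ranged from -1.43 (voom) to -0.07 (library weights), and Rac2 from -1.27 to -0.06. Without vehicle replicate 3 and LIT927 replicate 3, every remaining LIT927 library lay below both vehicle libraries for 4 of 9 members, against 5.2% of all genes. The median difference over all genes was 0.14 without vehicle replicate 1, -0.12 without vehicle replicate 4 and 0.12 without both libraries of high uroplakin level, against 0.02 with all.

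Relative to Ptprc, Cybb was at -0.0406 with a pseudocount of 1, at -0.27 with the mean of 8 leukocyte markers in place of Ptprc, and at -0.0572 to 0.201 without each library. Ncf4 was at 0.0666 with a pseudocount of 1, at -0.48 to 0.21 without each library, and at 0.27 without both libraries of high uroplakin level. Rac2 was at -0.13, Cyba at 0.21 and Ncf1 at 0.0098 against the mean of leukocyte markers, and at 0.0562, 0.0674 and 0.226 in that order with a pseudocount of 1. Without both libraries of high uroplakin level Cyba was at 1.09, Ncf1 at 0.14, Cybb at 0.065 and Rac2 at 0.193. None of these had an exact permutation p under 0.05. In the sets without 1 or both libraries only 10 to 20 divisions exist, so no such p was possible there.

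Replicate numbers are shared by the groups. Same-numbered libraries deviated together for numbers 1 and 3 (r = 0.565 and 0.70 across genes) and not for number 4 (-0.238). LIT927 replicate 4 and vehicle replicate 1, of different numbers, also deviated together (r = 0.642). The check therefore cannot settle whether the numbers pair the samples. With the replicate block 0 genes were called, Cybb was at -1.01 and Ncf4 at -0.89. The filter of 1 FPKM in 3 libraries left out Ncf1, Nox1, Nox4, Duox1 and Duox2. Depth limits Nox1, Nox4, Duox1 and Duox2, with 0 to 70 fragments per library.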
